A study of Mus musculus with 6 samples.

Results

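The cell cycle, replication and mitosis genes are described here as a set of 142 genes out of 10580 genes listed for sorted mouse Leydig cells. Members were chosen by gene symbol alone, through name stems for replication factors, cyclins, cyclin-dependent kinases (CDKs) and their inhibitors, E2F factors, mitotic kinases, centromere proteins, kinesins and chromosome-structure proteins. The rule left out Cdkn1c, and it also took in genes that share only a stem with the pathway, such as effectors of Cdc42. All 142 members were protein-coding and made up 1.34% of the listed genes. The GRCm38 annotation holds 223 protein-coding genes that match the rule. The other 81, among them Pcna, Rrm1, Ccnd1, Ccnd2, Cdc20 and Aurka, were not analysed here.

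The study set fetal Leydig cells (FLCs) at embryonic day 18.5 beside adult Leydig cells (ALCs) at postnatal day 100, with 3 libraries for each stage. Both groups were male and carried the Nr5a1 Tg transgene, in which Nr5a1 sequences drive GFP, and live single cells with strong GFP were sorted from dissociated testis. Because Sertoli cells also express Nr5a1, the sort separated Leydig cells by the strength of GFP and not by its presence. Fetal cells were pooled from several purifications to reach the RNA needed for a library, so an FLC library is not 1 animal. Adult cells also came from several independent purifications, and how many animals an ALC library holds is not given here.

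The measurement used here for each gene was 1 value, the mean of the size-factor normalized counts over all 6 libraries. The deposited fold changes between stages were left aside. The mean gives equal weight to every library, and by itself does not show how much of a level came from FLCs and how much from ALCs. It has no spread between libraries and the depth of the libraries is unknown, so no difference between stages was tested and neighbouring levels are not shown to differ. The listed genes are those under an adjusted p of 0.05 in the comparison made by the authors, so membership of the list already depends on the stages. A count of listed genes in a family is therefore not a count of detected ones. The list alone gives no share of listed genes over all tested genes to set beside such counts, so they are not read as results. The paper states a total of expressed genes, which was not used here. For comparisons between genes the mean was divided by the length of all annotated exons of the gene, and is given as normalized counts per kb.

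Proliferating cells copy their DNA once in each cycle, from origins that are licensed in G1 and fired in S phase, and then divide the copies on a spindle in mitosis. Cyclins activate CDKs, CDK inhibitors hold them back, and E2F factors switch on the genes of DNA synthesis. Genes of late division are known to be controlled through the cell cycle genes homology region (CHR), often with CCAAT boxes bound by NF-Y. Differentiated Leydig cells make androgens and are known to divide rarely in the adult testis.

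Promoter sequence was taken from RefSeq for GRCm38.p6, as windows from 250 bases before to 50 bases after each annotated start. The 4 promoters shown had the most matches in the whole window, with ties at 5 matches settled by the number of motif kinds and then by symbol, and 2 of the 6 matches of Mcm7 lie after the start and are not printed. Capitals mark a match on either strand to an E2F motif (TTTCCCGC, TTTCGCGC, TTTGCCGC or TTTGGCGC), a CHR (TTTGAA or TTCGAA) or CCAAT. Each line gives the 250 bases before the start, on the strand of the gene. All 4 genes lie on the minus strand, Top2a at chr11:99024190-99024439, Cdk1 at chr10:69352913-69353162, Mcm7 at chr5:138171884-138172133 and E2f3 at chr13:29986064-29986313.
Top2a: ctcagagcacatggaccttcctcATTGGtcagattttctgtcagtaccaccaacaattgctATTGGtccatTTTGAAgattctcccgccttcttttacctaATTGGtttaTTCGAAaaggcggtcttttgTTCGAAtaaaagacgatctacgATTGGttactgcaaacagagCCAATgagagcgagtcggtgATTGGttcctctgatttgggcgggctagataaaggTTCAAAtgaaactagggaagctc
Cdk1: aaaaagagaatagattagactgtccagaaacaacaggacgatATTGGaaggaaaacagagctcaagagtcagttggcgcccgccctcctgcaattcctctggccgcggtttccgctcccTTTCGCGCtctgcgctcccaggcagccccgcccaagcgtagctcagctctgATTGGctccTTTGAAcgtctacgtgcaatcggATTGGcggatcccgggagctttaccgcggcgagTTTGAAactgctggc
Mcm7: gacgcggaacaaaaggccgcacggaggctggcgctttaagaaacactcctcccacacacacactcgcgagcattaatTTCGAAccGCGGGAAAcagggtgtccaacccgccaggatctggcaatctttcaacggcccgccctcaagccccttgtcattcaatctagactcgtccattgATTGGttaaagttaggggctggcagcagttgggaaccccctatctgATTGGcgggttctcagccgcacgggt
E2f3: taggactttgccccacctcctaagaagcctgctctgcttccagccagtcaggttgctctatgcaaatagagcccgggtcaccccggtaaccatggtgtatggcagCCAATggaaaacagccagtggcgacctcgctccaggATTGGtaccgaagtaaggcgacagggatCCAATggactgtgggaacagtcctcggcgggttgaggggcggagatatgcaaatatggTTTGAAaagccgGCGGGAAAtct
The Top2a promoter, of the topoisomerase that untangles sister chromosomes, held 6 CCAAT and 4 CHR matches and no E2F match. The promoter of Cdk1, the kinase that drives entry into mitosis, held 3 CCAAT, 2 CHR and 1 E2F match. In the Mcm7 promoter, of a helicase subunit, the CHR centred 170 bases before the start stood next to an E2F match centred 161 bases before it. The E2f3 promoter held its E2F match 7 bases and its CHR 20 bases before the start.

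As a set, the members were listed at moderate levels. Their means ran from 15.4 normalized counts for Nek11, a kinase of the NIMA family, to 9267 for Ccnd3, the cyclin that partners Cdk4 and Cdk6 in G1. The median mean was 464 normalized counts for members and 679 for all listed genes. Only 11.3% of members had a mean under 100 normalized counts, against 23.0% of listed genes, and 31.0% had at least 1000, against 41.3%. The shares of members at both ends of the range were thus smaller than those of the listed genes, with no test of the difference. Together they held 0.600% of the listed normalized counts.

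On the length-corrected scale the median was 99.5 normalized counts per kb for members and 147 for the 10522 listed genes with a length. Of the 142 members, 51 lay above that table median, a share of 35.9% (95% Wilson interval 28.5 to 44.1, which treats genes as independent draws and covers counting only). Cdk4 was highest and Cdk6 lowest, at 1548 and 3.61 normalized counts per kb. Only 4 members reached 1000 normalized counts per kb: Cdk4, Ccnd3, Cdc42se2 and Aurkaip1, the last a mitochondrial ribosome-associated protein matched through its name. The order of close levels depends on the length used: 50 members rose by over 1.5 times when the longest transcript replaced all exons, and the highest such fold was 3.67, for Cdk14. In 16 members over 10% of exon bases are shared with another gene on the other strand, and only some of these are marked below.

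**Figure D1:**
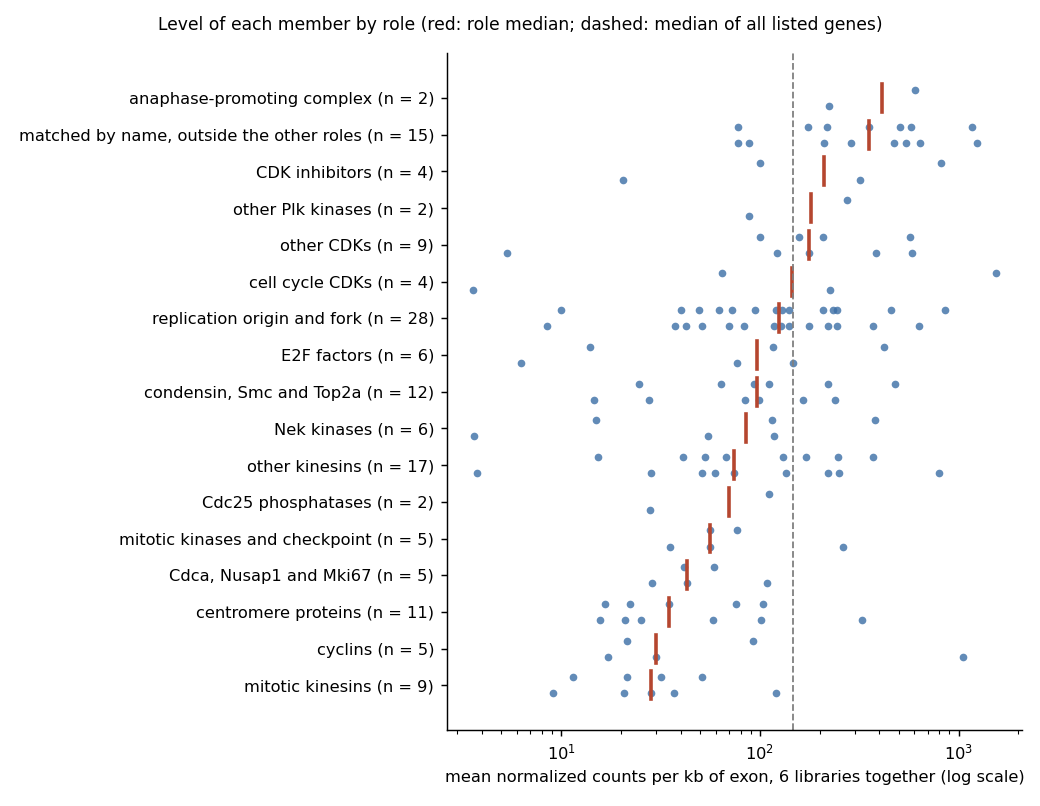
Mean normalized counts per kb of exon over 6 libraries (log scale) for each member, 1 point per gene, grouped by role with the role median in red and the median of all listed genes dashed. The 9 mitotic kinesins all sit under the dashed line at 147, whereas genes matched by name outside the other roles have a median of 355.

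The genes that work in G1 spanned the whole range of the set. Cdk4, the G1 kinase that phosphorylates the retinoblastoma protein, stood at 1548 normalized counts per kb, and its close relative Cdk6 at 3.61. Cdk2, which acts at the start of S phase, had 225 normalized counts per kb and Cdk1 had 64.6. Cdk4 was thus 429-fold above Cdk6 and 24.0-fold above Cdk1 on this scale. In Cdk4, 19.7% of exon bases also belong to Tspan31 on the other strand, and the strand setting of the counting is not given in the sources used here.

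Cyclins showed the same kind of spread. The G1 cyclin Ccnd3 reached 1056 normalized counts per kb. Ccna2, the cyclin of S phase and G2, had 92.1, Ccne2, of the G1 to S transition, had 30.0, Ccna1, known mainly from male germ cells, had 21.4 and Ccnb1, the mitotic partner of Cdk1, had 17.3 normalized counts per kb. Ccnd3 was therefore the only listed cyclin above the table median, 11.5-fold over Ccna2 and 61.2-fold over Ccnb1. With the longest transcript as length these folds were 18.9 and 82.1. On the other strand, Ccna2 shares 12.5% of its exon bases with Exosc9, Ccne2 17.4% with Ints8 and Ccna1 10.1% with another gene.

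Among the CDK inhibitors, Cdkn1a (p21) was highest at 815 normalized counts per kb. Cdkn1b (p27) followed at 320, Cdkn2c (p18) at 99.8 and Cdkn2b (p15) at 20.5 normalized counts per kb. Cdkn1a and Cdkn1b, of the Cip/Kip family, thus lay above the table median, and Cdkn2c and Cdkn2b, of the Ink4 family, below it. Cdkn1c, the other Cip/Kip gene, is listed but is no member, since the rule left it out.

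The 6 listed E2F factors had a median of 96.9 normalized counts per kb. E2f6, a repressor that lacks the retinoblastoma-binding region, was highest at 421 normalized counts per kb, ahead of E2f5 at 147 and E2f3 at 117. E2f1, the classical activator of S phase genes, had 77.0 normalized counts per kb. The atypical repressors E2f8 and E2f7 were lowest, at 14.0 and 6.30 normalized counts per kb.

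The 28 listed replication genes, of 42 annotated, had a median of 124 normalized counts per kb. The Mcm2 to Mcm7 proteins form the ring-shaped helicase that opens DNA, and all 6 of its subunits were listed within a 3.07-fold range. Mcm6 had 371, Mcm4 246, Mcm3 234, Mcm2 207, Mcm7 177 and Mcm5 121 normalized counts per kb. With the longest transcript as length Mcm2 rose to 413 and Mcm6 to 398 normalized counts per kb, so their order turns with the length used. Mcm9, which acts in recombination, had 62.5, and Mcm10, which helps to activate the helicase, had 8.51 normalized counts per kb.

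The origin recognition complex marks the sites where replication starts. Its subunits Orc3, Orc5, Orc6 and Orc4 had 244, 220, 141 and 140 normalized counts per kb, and Orc1 had 10.1. Orc3 thus stood 24.3-fold over Orc1, or 41.5-fold with the longest transcript as length, against 3.07-fold and 2.89-fold between the highest and lowest subunit of the Mcm ring. The GINS subunits of the active helicase spread 12.2-fold, from Gins3 at 37.5 to Gins4 at 455 normalized counts per kb. Gins2 lay between them at 94.4, but 67.3% of its exon bases are shared with Gse1 on the other strand.

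DNA polymerases differed by subunit. The accessory subunits Pole3, which is also a histone-fold protein of chromatin remodelling, and Pold2 had 857 and 631 normalized counts per kb. The catalytic subunits Pola1 and Pold1 had 49.7 and 83.4 normalized counts per kb. Pold3 had 127, Pole2 51.1 and Pola2 42.6 normalized counts per kb. Rfc3, a subunit of the loader of the sliding clamp, stood at 117, and Cdc45 and Cdc7, which fire origins, at 72.7 and 40.3 normalized counts per kb. Rrm2, the S phase subunit of ribonucleotide reductase, had 129 normalized counts per kb, and Rrm2b, the form used outside S phase, had 69.9.

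**Figure D2:**
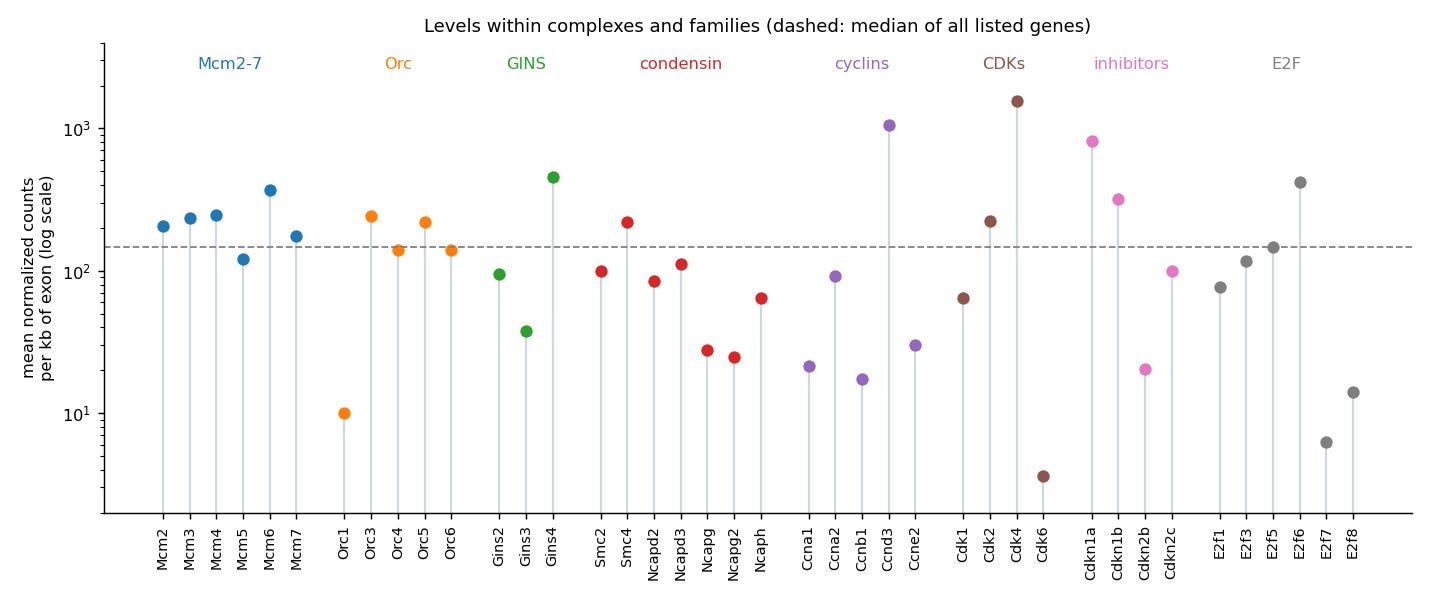
Mean normalized counts per kb of exon over 6 libraries (log scale) for the listed subunits of 8 complexes and families, with the median of all listed genes dashed. Mcm2 to Mcm7 lie within a 3.07-fold range, while cyclins span 61.2-fold (105-fold with the longest transcript as length) and the cell cycle CDKs 429-fold.

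Genes of mitosis were mostly in the lower part of the listed range. Among the kinases and spindle checkpoint genes, Bub3 had 263 normalized counts per kb, Plk1 76.7, Aurkb 56.2, Bub1b 56.2 and Bub1 35.4. Bub3 was the only one above the table median and was 7.44-fold above its partner Bub1. Mki67, the proliferation antigen that coats mitotic chromosomes, had a mean of 595 normalized counts, which is 59.2 normalized counts per kb.

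The 9 kinesins grouped as mitotic, mainly motors of the spindle and of cytokinesis, had a median of 28.5 normalized counts per kb and none lay above the table median. The grouping is not the only one possible, since Kif24 is also known from centrioles and Kif2b, counted with the other kinesins at 130 normalized counts per kb, is also known from the spindle. With Kif2b in place of Kif24, a choice made after seeing the data, the median was again 28.5 normalized counts per kb and again none lay above the table median. Of the 9 as grouped, Kif20a was highest at 121 normalized counts per kb, with 29.3% of its exon bases shared with Cdc23 on the other strand, where both genes end. Kif20b and Kif22 followed at 51.4 and 36.9, Kif11, which pushes spindle poles apart, had 28.5, and Kif14 was lowest at 9.12 normalized counts per kb. The 17 other kinesins, many of which carry cargo along microtubules or act in cilia, had a median of 73.9 and 6 of them lay above the table median. Kif1c, a cargo motor, reached 801 normalized counts per kb, ahead of Kif3c at 370 and Kif1a at 251, and Kif26b had 3.80. For Kif3c, 40.7% of exon bases are shared with genes on the other strand.

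Of the 11 listed centromere proteins, 1 lay above the table median, and the role median was 35.0 normalized counts per kb. That gene, Cenpv, had 329 normalized counts per kb, followed by Cenpq at 103 and Cenpc1 at 101. Cenpa, the histone H3 variant that marks centromeres, had 22.3 and Cenpf, a large kinetochore protein, 15.8 normalized counts per kb. Cenph (chromosome 13, 100759674 to 100775899) and Ccnb1 (100778650 to 100786570) lie on the same strand 2750 bases apart, and had 21.0 and 17.3 normalized counts per kb.

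The condensin, Smc and Top2a genes, which fold, hold or untangle chromosomes, had a median of 96.4 normalized counts per kb over 12 members. Smc3 of cohesin was highest at 478 normalized counts per kb, and Smc6 and Smc5 of the repair complex had 240 and 166. In condensin, the ATPase subunits Smc4 and Smc2 had 221 and 99.3 normalized counts per kb. Its other subunits Ncapd3, Ncapd2, Ncaph, Ncapg and Ncapg2 had 111, 84.7, 64.0, 27.9 and 24.7 normalized counts per kb. Top2a had 93.4 normalized counts per kb, and the meiotic cohesin gene Smc1b was lowest at 14.7. Cohesin and Smc5/6 also act outside division, whereas condensin I and Top2a are best known from mitosis.

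Cdca4, a regulator of transcription, led the Cdca, Nusap1 and Mki67 group at 109 normalized counts per kb, and Cdca8, a subunit of the Aurora B complex, was lowest at 28.7. Nusap1, which bundles spindle microtubules, had 42.8 and Cdca7 had 41.6 normalized counts per kb. The phosphatases that activate CDKs, Cdc25a and Cdc25b, had 112 and 28.1 normalized counts per kb. The anaphase-promoting complex subunits Cdc27 and Cdc23 had 602 and 222 normalized counts per kb, both above the table median, although 13.4% of the exon bases of Cdc23 are shared with Kif20a.

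Levels of the remaining members, outside the roles above, varied by family. The 9 other CDKs had a median of 176 normalized counts per kb, led by Cdk7 at 585, which both activates CDKs and phosphorylates RNA polymerase II. Cdk18 had 568, the elongation kinase Cdk9 had 384 and Cdk14 was lowest at 5.32 normalized counts per kb. Of the Nek kinases, Nek7, also known from the inflammasome, had 380 normalized counts per kb, Nek8 118, Nek1 115 and Nek11 3.64. Nek1 and Nek8 are known from cilia. Plk2 and Plk3, stress-response kinases, had 273 and 88.4 normalized counts per kb. The 15 genes matched by name outside the other roles had a median of 355 normalized counts per kb, and 12 of them lay above the table median. They were led by Cdc42se2 at 1236, Aurkaip1 at 1170 and the ubiquitin-conjugating enzyme Cdc34 at 638 normalized counts per kb, and Cdc42ep2 was lowest at 77.3.

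Pathway genes that the name rule does not reach were counted the same way. Of 47 such genes, 31 were listed, with a median of 68.2 normalized counts per kb, and 14 lay above the table median. Rad21 and Stag2 of cohesin had 1011 and 604 normalized counts per kb, and Lin37, of the complex that represses division genes in resting cells, had 504. The mitotic transcription factors Foxm1 and Mybl2 had 55.4 and 22.2, and the kinetochore gene Ndc80 was lowest at 11.4 normalized counts per kb.

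The Leydig label was checked against marker genes. Of 7 Leydig markers, 6 were listed, at 21275 to 414861 normalized counts per kb, and Lhcgr was not analysed here. Of 8 germ cell markers 4 were listed: Prm1 and Tnp1 of late spermatids had 2623 and 2301 normalized counts per kb, Ddx4 61.1 and Piwil1 32.0. The 3 listed Sertoli markers had 5.72 to 82.2 and the 4 listed immune markers 5.61 to 170 normalized counts per kb. Both listed endothelial markers had 35.7 and 316 and both listed interstitial progenitor markers 92.0 and 267 normalized counts per kb, and none of 3 peritubular myoid markers was listed. Listing depends on the comparison of stages made by the authors, so a marker that is not listed has no level here and is not shown to be absent. The members Ccna1 and Smc1b, known mainly from the germ line, had 21.4 and 14.7 normalized counts per kb beside those germ cell markers, and the part of other cell types in these levels was not tested. In bulk samples, fewer cells of a type and less RNA per cell cannot be told apart.

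Promoter windows were found for 124 of the 142 members. An E2F match occurred in 24 of 124 members (19.4%, Wilson interval 13.4 to 27.2), beside 4.18% of the 7928 listed genes with a window and 2.60% of all 27025 genes with one. A gene was counted if any of its windows held the motif, and per window the share was 16.9% of 142 member windows and 2.26% of all 32851. The replication role held 12 of the 24 members with a match, out of its 24 genes with a window. They were Gins3, Mcm3, Mcm5, Mcm6, Mcm7, Orc1, Orc3, Pola1, Pold1, Pold3, Pole2 and Rfc3, among which Mcm6 had 3 matches. Those of Mcm6 centred at -106 and -102 bases from the start overlap, so they are not separate sites. The other 12 were Cdk1, Cdk2, E2f3, E2f7, Cdc25a, Cdca7, Cenpm, Kif15, Cdc42bpa, which was matched by name alone, and the condensin genes Ncapd2, Ncapg and Ncapg2, the last with 2 matches. None of the 8 other CDKs or 14 other kinesins with a window held one.

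CHR matches were distributed differently. They occurred in 46 of 124 members (37.1%, Wilson interval 29.1 to 45.9), beside 16.9% of listed genes and 21.7% of all genes with a window. Per window the share was 33.8% for members and 19.2% over all. All 8 kinesins grouped as mitotic that had a window held a CHR, namely Kif4, Kif11, Kif14, Kif15, Kif20b, Kif22, Kif23 and Kif24. Kif2b held none, so with Kif2b in place of Kif24 the count was 7 of 8 (87.5%). A CHR was also present in all 4 mitotic kinase and checkpoint genes with a window, Plk1, Bub1, Bub1b and Bub3, and in 8 of 11 condensin, Smc and Top2a genes. Other division roles held fewer, with 3 of 11 centromere genes and none of the 3 cyclins with a window, Ccnb1 among them. It was found in 3 of 14 other kinesins and none of the 8 other CDKs. The replication role had a CHR in 7 of 24 genes (29.2%).

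CCAAT occurred in 70 of 124 members (56.5%, Wilson interval 47.7 to 64.9), beside 42.2% of listed genes and 41.1% of all genes with a window. Per window the share was 50.7% for members and 37.4% over all. It was present in all 4 mitotic kinase and checkpoint genes, in 8 of 11 centromere genes, in 16 of 24 replication genes and in 4 of 14 other kinesins. Matches of different motifs overlapped in 2 pairs over all member windows. These are matches of letters and not sites shown to be bound, and a window without a match says only that these letters are not in it.

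**Figure D3:**
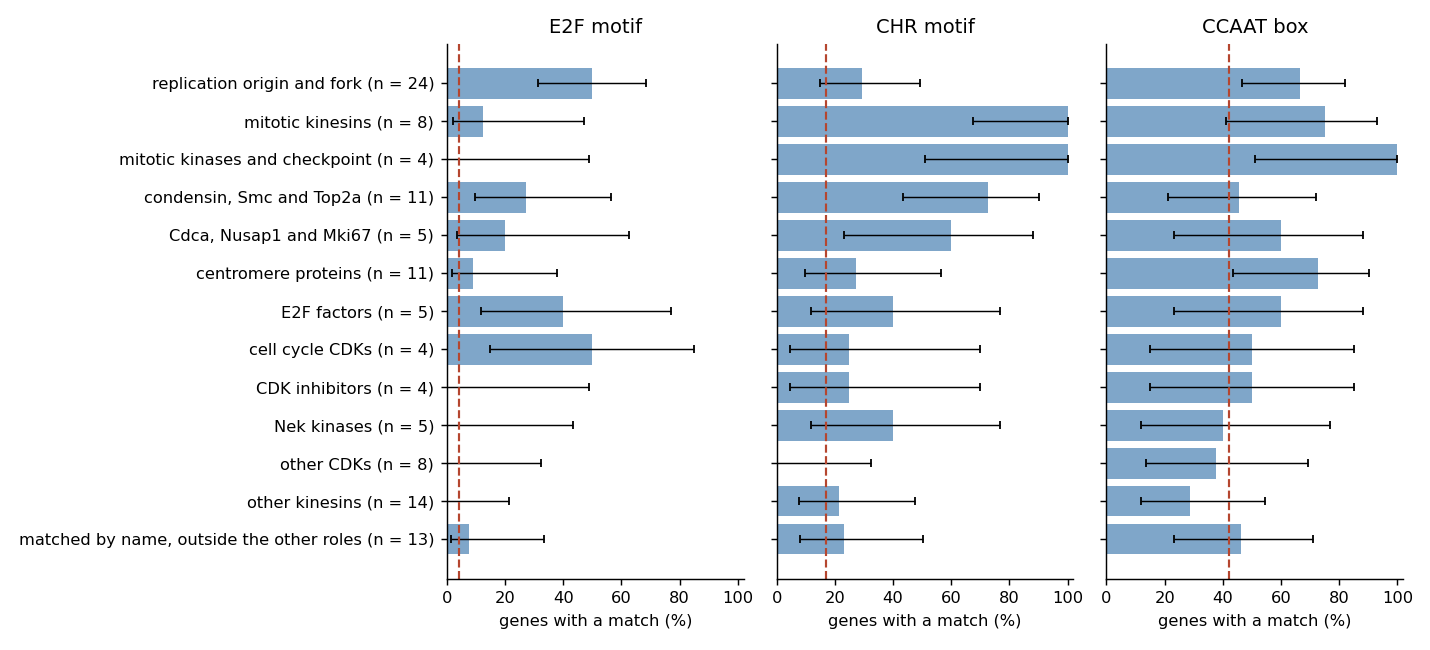
Share of members (%) with an E2F, CHR or CCAAT match in the RefSeq promoter window for roles with at least 4 members with a window, with 95% Wilson intervals as bars and the share of all listed genes as a dashed red line. E2F matches are most frequent in replication genes (12 of 24) and cell cycle CDKs (2 of 4), and CHR matches reach 8 of 8 in kinesins grouped as mitotic (7 of 8 with Kif2b in place of Kif24) and 4 of 4 in mitotic kinases and checkpoint genes, but 3 of 11 in centromere genes.

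Positions were taken over all 142 member windows, in which alternative starts of a gene can count a site more than once. Overlapping matches of the same motif, as for E2F in Mcm5 and Mcm6, were also counted separately. Of 31 E2F matches in members, 54.8% were centred within 50 bases of the start, against 36.0% of those in all windows. The share was 46.9% of 64 CHR matches against 26.1%, and 34.7% of 124 CCAAT matches against 29.2%. The median position was 37 bases before the start for E2F, 63.5 for CHR and 76.5 for CCAAT.

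**Figure D4:**
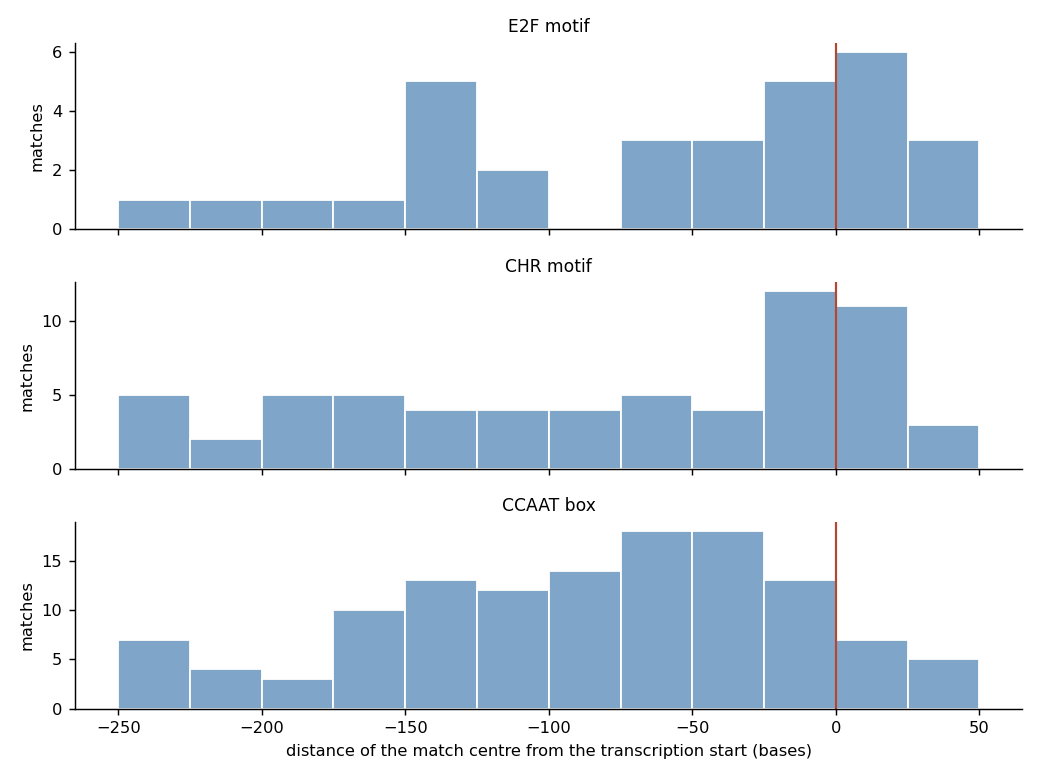
Number of motif matches in member promoters by distance of the match centre from the transcription start (bases), in bins of 25 bases, with the start in red. The share of matches centred within 50 bases of the start is 54.8% for E2F, 46.9% for CHR and 34.7% for CCAAT. Median positions are 37 bases before the start for E2F, 63.5 for CHR and 76.5 for CCAAT. The window reaches 250 bases before the start and 50 after it, so most searched bases lie before the start.

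Levels were also set beside the motifs. Members with a CHR had a median of 57.7 normalized counts per kb (n = 46) and those without 132 (n = 78). Over all listed genes the same medians were 109 with and 165 without a CHR, so the lower median beside a CHR was also present over the listed genes as a whole. Members with CCAAT had a median of 77.0 normalized counts per kb and those without 125, whereas listed genes had 158 and 154. Members with an E2F match had a median of 84.0 normalized counts per kb and those without 99.5, whereas listed genes had 170 and 155. The 38 members with none of the 3 motifs had a median of 214 normalized counts per kb. The 9 members with all of them, Cdc42bpa, Cdk1, Cenpm, E2f3, Gins3, Mcm7, Ncapd2, Ncapg and Rfc3, had a median of 84.7. The quartiles of members with and without each motif overlap, and motif shares differ between roles, so the part of either in the level was not tested.

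**Figure D5:**
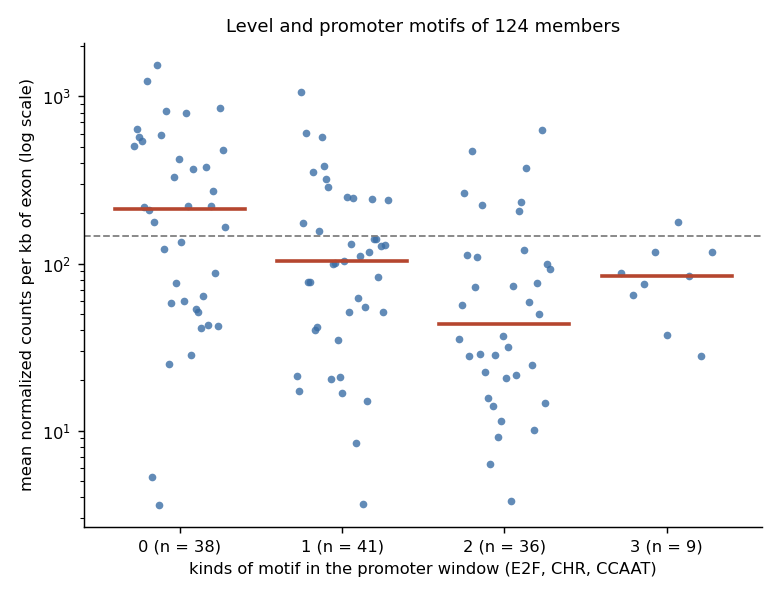
Mean normalized counts per kb of exon over 6 libraries (log scale) by the number of motif kinds in the promoter window, 1 point per member, with group medians in red and the median of all listed genes dashed. Members with 0, 1, 2 and 3 kinds have medians of 214, 103, 43.3 and 84.7.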

How the data were processed

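Per the labels and the study's methods, RNA from Nr5a1-GFP+ cells was made into libraries with a stranded, ribosomal RNA depleted total RNA kit and read in pairs of 50 bases. The study's text elsewhere speaks of poly(A)+ RNA, and which applies was not settled here. The authors demultiplexed with CASAVA 1.8.2 (in the submitters' processing notes), mapped with GemTools, counted reads per gene on GRCm38 and normalized with DESeq2. The deposited signal used here is the mean normalized count per gene over all 6 libraries, 3 per stage. The deposited fold changes, standard errors, Wald statistics and p-values belong to the comparison by the authors and were not used, except that adjusted p-values were read once to test that every listed gene was under 0.05. No value per library was used, so the planned edgeR test was not run.

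Exon lengths came from GENCODE vM21 (GRCm38), a later release than the authors used: 10223 listed genes matched by symbol, 299 by older symbol and 58 not at all. Motifs were searched on both strands of RefSeq promoter windows, with a gene counted once, and none on chromosome 18 was considered for printing. Of 142 member windows, 114 began in a GENCODE transcript of the gene by their first 20 transcribed bases. Scripts (Python 3.11.15, scipy 1.17.1) were tested on simulated data. Genes were named by role, the 3 highest and the lowest level in each, with every listed member of small families and textbook anchors. Complex groupings and ratios were drawn up after the levels were seen, and a few further genes were named then. Members and lists were chosen with earlier results of these data known.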

Additional observations from a re-analysis of the deposited data

How the results depend on the processing

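The share of members above the table median was 38.7% with the longest transcript as length and 37.3% with no length. It was 30.7% without members matched by name outside the other roles. All of these lay within the interval of the value reported. The share fell to 26.2% once genes averaging under 100 normalized counts were removed, with the median taken anew over the genes that remained. That filter took out 23.0% of listed genes and 11.3% of members, so the 26.2% is set against another threshold. Without the members that share over 10% of exon bases with another gene, an alternative chosen after seeing the data, it was 37.3%. A narrower E2F motif gave 9.68% of members, beside 1.68% of listed genes. In windows from 100 bases before the start, 29.0% of members held a CHR, beside 6.98% of listed genes, and 40.3% held CCAAT, beside 28.2%. These 3 alternatives search fewer letters or fewer bases, and each member share stayed above that of the listed genes. The other motif alternatives stayed within the intervals of the values reported, which cover counting only. The window from 100 bases before the start gave 14.5% for E2F, beside 2.30% of listed genes. TTTGAA alone gave 31.5% for CHR, beside 14.9% of listed genes. Without members matched by name outside the other roles, the shares were 20.7% for E2F, 38.7% for CHR and 57.7% for CCAAT. The CHR share of mitotic kinesins was 87.5% with Kif2b in place of Kif24, also chosen after seeing the data. No paired analysis was possible because the values used hold no library of their own. For the same reason the planned changes of normalization and count filter, DESeq2 as a second test and leaving out each replicate were not run. The unknown depth leaves low levels, such as those of Nek11 and Cdk6, without a stated precision.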
